A study of Homo sapiens with 5 samples.

Results

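The genes described here encode the enzymes and helpers that turn a new collagen chain into a crosslinked fibre: 34 genes of the 19936 in the deposited files, listed by symbol for their function and found by their Ensembl gene identifiers. They were ordered by step into 14 hydroxylases and glycosyltransferases, 6 chaperones and export factors, 8 propeptide proteases with their enhancers, and 6 crosslinkers. The rule for the list uses function and no measured value. Members, and the other lists used below, were however chosen with earlier results of these data known. The cells were LX-2, an immortalised line derived from human hepatic stellate cells, which lay down most of the scar matrix of the fibrotic liver. RNA was sequenced 48 h after transfection with a control small interfering RNA (siRNA; 2 libraries, control 1 and control 2) or with siRNA against LIX1L (3 libraries, siLIX1L 1, 2 and 3). All 5 libraries thus come from transfected cells of 1 line, and no untransfected cells were analysed here. The title of the series ties LIX1L to the chemokine CCL20 and to fibrosis, so the comparison asks how these maturation genes stood when LIX1L was low. Whether the libraries are separate cultures is not stated, so a p-value measures only the spread between these libraries.

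Procollagen chains are hydroxylated on proline and lysine in the endoplasmic reticulum (ER), and some hydroxylysines then receive sugars. Hydroxyproline keeps the triple helix stable at body temperature, and chaperones bind the folded helix until it is loaded into large transport carriers. Outside the cell, proteases cut off the terminal propeptides so that fibrils can form, and lysyl oxidases crosslink the fibrils, which stiffens scar tissue and slows its breakdown.

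LIX1L itself stood at 26.4 and 35.5 reads per 1000000 (RPM) in control 1 and 2; the 3 libraries with LIX1L siRNA had 6.60, 7.08 and 3.65 RPM. Both controls lay above all siLIX1L libraries, a 5.36-fold lower mean with siLIX1L (edgeR log2 difference -2.45). LIX1L fell by limma on log2(FPKM + 1), where the added 1 shrinks differences at low FPKM, with a difference of -0.87 and an adjusted p of 0.0384. In the fits without siLIX1L 1, 2 or 3 its adjusted p was 0.141, 0.230 and 0.0759. Library totals ran from 14856104 to 18294056 reads, and 3 reads, the limit that a count of 0 allows, are worth 0.164 to 0.202 RPM; these limits cover counting error only. The share of reads from the mitochondrial genome was 2.24 and 3.35% in the controls and 1.08 to 1.29% in the siLIX1L libraries, and its part in the differences below was not tested. The median gene differed by 0.12 on the log2 scale between siLIX1L 1 and 2, against 0.43 between the controls, so the spread within the siLIX1L group rests on 2 libraries that are much alike. Of 14 stellate cell markers 13 had over 3 reads in some library, with a summed level of 3734 to 10213 RPM in the controls and 6416 to 6837 RPM in the siLIX1L libraries. The sum is set mostly by COL1A1 and SPARC, and single markers moved with the group. ACTA2, smooth muscle actin, was at 39.0 and 35.4 RPM in the controls and at 8.89, 8.41 and 14.8 RPM with siLIX1L, and it fell by edgeR (-1.80, adjusted p 0.0497; DESeq2 1.4e-05). NGFR, a neurotrophin receptor of stellate cells, was at 97.5 and 45.0 RPM and at 21.3, 22.5 and 10.1 RPM (limma -1.23, adjusted p 0.0671; DESeq2 2.2e-04). In both genes the controls lay above all siLIX1L libraries. Of the 12 markers with a mean of at least 1 RPM, 4 had this order, against 21.7% of all genes. RELN alone had both controls below, at 14.5 and 1.37 RPM against 21.8, 27.1 and 14.9 RPM with siLIX1L. Over all genes 22.7% had that order. The part of these markers in the results below was not tested. Of this list limma called 0 of 8 tested (2 with an unadjusted p under 0.05), edgeR 1 of 12, and DESeq2 3, all lower. Over all genes edgeR called 0.891% in either direction and DESeq2 6.22% lower. LRAT, which stores retinol as esters in quiescent stellate cells, was at 0 in all 5, and DES, which encodes desmin, had 0 to 13 reads. The summed level of 6 hepatocyte markers was 4.10 to 7.43 RPM in the controls and 2.32 to 4.32 RPM with siLIX1L, with APOA2 and TTR at 0, and that of 5 macrophage and leukocyte markers was 10.9 to 36.4 RPM and 5.05 to 8.54 RPM. In that last list CD14 had 131 and 653 reads in the controls and 84 to 118 with siLIX1L, while CD68 had 1 read at most. The sums of 4 biliary or epithelial and of 4 endothelial markers ran from 1.06 to 4.50 and from 1.97 to 6.75 RPM over the 5 libraries.

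The maturation genes differed more between the 2 controls than between control 1 and the siLIX1L libraries. Over the 32 members with a mean of at least 1 RPM, control 2 stood 0.63 above control 1 in the median on the log2(RPM + 0.5) scale, and the same median over 12436 genes was -0.09. Control 2 was at least 1.5 times control 1 in 17 of the 32 (53.1%), against 16.5% of all genes. The median difference of siLIX1L minus control was -0.41 with both controls, -0.06 against control 1 alone and -0.86 against control 2 alone. With a minimum mean of 5 RPM the first of these was -0.26. Over all genes the same 3 medians were 0.00, -0.04 and 0.04.

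**Figure D1:**
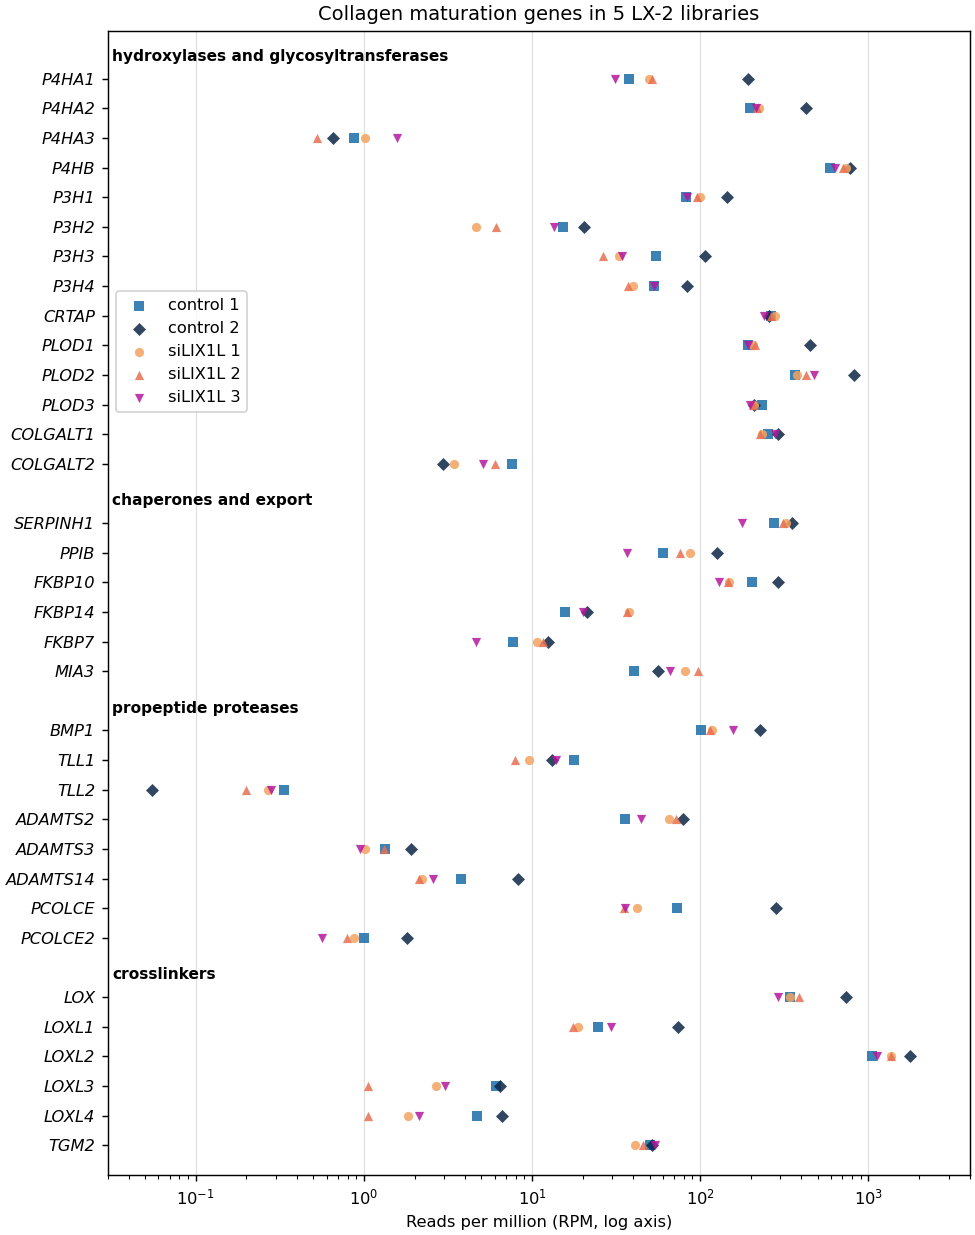
Level of each of the 34 genes in the 5 libraries, as reads per 1000000 on a log axis; squares and diamonds are control 1 and control 2, and circles, upward and downward triangles are siLIX1L 1, 2 and 3. Control 2 lies to the right of the other libraries in many rows, as for P4HA1 (191 RPM) and PCOLCE (281 RPM), while both controls lie to the right of the siLIX1L libraries for P3H3, FKBP10, LOXL3 and LOXL4.

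By the order of the libraries, the 32 genes fell into 4 kinds. In 15 (46.9%, against 15.3% of all genes) only control 2 was above every siLIX1L library: P4HA1, P4HA2, P4HB, P3H1, PLOD1, PLOD2, COLGALT1, SERPINH1, PPIB, FKBP7, BMP1, ADAMTS2, LOX, LOXL1 and LOXL2. In 10 (31.3%, against 21.7% of all genes) both controls were above every siLIX1L library: P3H2, P3H3, P3H4, FKBP10, ADAMTS3, ADAMTS14, PCOLCE, PCOLCE2, LOXL3 and LOXL4. In MIA3 alone both controls were below every siLIX1L library, an order that 22.7% of all genes had. CRTAP, PLOD3, COLGALT2, FKBP14, TLL1 and TGM2 had some other order, and P4HA3 and TLL2 were under the minimum level.

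By limma on log2(FPKM + 1), with p-values adjusted over all 6464 genes tested, 0 of the 21 members tested passed the threshold of 0.05. Over all genes 1.87% passed. An unadjusted p under 0.05 was found in 4 of the 21, against 1785 of the 6464 genes. Of the 21 differences 17 were negative. The other 13 members did not reach the minimum of 1 FPKM in 2 libraries, partly because the deposited FPKM divides by the whole gene span, introns included. For genes near 1 FPKM the added 1 shrinks the limma difference. Sizes of limma differences are thus not to be compared between genes of unlike FPKM. On the read counts, edgeR's quasi-likelihood test called 0 of 33, against 0.891% of all genes. It gave 11 of them an unadjusted p under 0.05, against 3355 of 13026 genes. Limma on log2(RPM + 0.5) called 0 of 32. There 9 had an unadjusted p under 0.05, against 3156 of 12436 genes. Such p-values were thus common over all genes, and counts of them by step and by list are to be read beside that. DESeq2 called 6 of 33 lower with siLIX1L (18.2%, against 6.22% of all genes): PCOLCE, P3H3, LOXL3, LOXL4, ADAMTS14 and FKBP10. In each of these 6 both controls lay above the siLIX1L libraries, as in 21.7% of all genes. A call as lower favours that order, so the order adds no support to the calls. DESeq2 also called more genes in all, 1673, against 121 by limma and 116 by edgeR.

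Which control was kept decided the count by limma. Without control 1, 10 of the 21 were called lower (47.6%, against 13% of all genes): P4HA2, P3H1, P3H3, P3H4, PLOD1, PLOD2, FKBP10, PCOLCE, LOX and LOXL1. Without control 2, PCOLCE was the 1 member called, against 5.21% of all genes. With 1 control left, the spread in these fits comes from the siLIX1L libraries, and the lone control is assumed to vary as they do. For all genes, the limma count went from 121 to 1650 without control 1, to 337 without control 2, and to 0 without any 1 of the siLIX1L libraries (1034, 899 and 1773 genes with an unadjusted p under 0.05 without siLIX1L 1, 2 and 3). Of the 34 members, 19 share exon positions with another annotated gene, 8 of them with a gene in the files, and without strand information some of their reads may belong to that gene. In bulk RNA, fewer cells that express a gene and less of its RNA per cell cannot be told apart.

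Among the hydroxylases, most of the difference from control lay in control 2. The median over 13 of them was -0.36 with both controls, -0.01 against control 1 and -0.94 against control 2, and 7 of the 13 had control 2 at 1.5 times control 1 or more. Their summed level was 2346 and 3773 RPM in control 1 and 2 and 2450 to 2502 RPM in the siLIX1L libraries. By limma 0 of 10 tested passed in either direction (1 with an unadjusted p under 0.05), and by edgeR 0 of 14 (4). DESeq2 called 1 of 14 lower, P3H3, against 6.22% of all genes.

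P4HA1, P4HA2 and P4HA3 encode alternative catalytic alpha subunits of collagen prolyl 4-hydroxylase. P4HA1 was at 38.0 and 191 RPM in control 1 and 2 and at 49.7, 51.4 and 31.0 RPM in siLIX1L 1, 2 and 3. Control 2 was thus 5.04 times control 1, while control 1 lay inside the range of the siLIX1L libraries; edgeR gave a log2 difference of -1.43 and an adjusted p of 0.188. P4HA2 was at 198 and 427 RPM in the controls and at 224, 219 and 214 RPM with siLIX1L. Here control 2 was high and control 1 the lowest of all (limma -0.31, standard error 0.24, adjusted p 0.430); the difference was 0.10 without control 2 and -0.72, with an adjusted p of 0.0182, without control 1. P4HA3 had 13 and 12 reads in the controls and 15, 8 and 28 with siLIX1L, and no order of the groups can be read from so few. P4HB, protein disulfide isomerase, which is the beta subunit of the same enzyme, was at 590 and 773 RPM and at 741, 710 and 635 RPM, with all siLIX1L libraries between the 2 controls (limma 0.04, adjusted p 0.914).

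Lysyl hydroxylases are encoded by PLOD1, PLOD2 and PLOD3; the PLOD2 product acts on the telopeptide lysines from which the most stable crosslinks form. PLOD1 was at 194 and 450 RPM in the controls and at 207, 210 and 193 RPM in siLIX1L 1, 2 and 3. PLOD2 was at 365 and 816 RPM and at 377, 427 and 474 RPM. In both, control 2 stood alone, at 2.33 and 2.24 times control 1. PLOD3 was at 233 and 210 RPM in the controls and at 210, 206 and 197 RPM with siLIX1L, with no such step between the controls. The limma differences were -0.47 for PLOD1 (adjusted p 0.348), -0.32 for PLOD2 (0.512) and -0.11 for PLOD3 (0.675). Without control 2 those of PLOD1 and PLOD2 were 0.06 and 0.18.

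P4HA1, P4HA2 and PLOD2 are known targets of hypoxia-inducible factors, which bind DNA at the core ACGTG or GCGTG. The 250 bases before the RefSeq start (build GRCh38.p14) are shown for these 3 genes and for the other lysyl hydroxylases, since 4 of the 5 were high in control 2 and they differ in the motif; capitals mark ACGTG or GCGTG on either strand (CACGT is ACGTG on the other strand, CACGC would be GCGTG). P4HA1 is at chr10:73096867-73097116 (minus strand), P4HA2 at chr5:132227092-132227341 (minus), PLOD1 at chr1:11934467-11934716 (plus), PLOD2 at chr3:146161185-146161434 (minus) and PLOD3 at chr7:101217582-101217831 (minus).
P4HA1: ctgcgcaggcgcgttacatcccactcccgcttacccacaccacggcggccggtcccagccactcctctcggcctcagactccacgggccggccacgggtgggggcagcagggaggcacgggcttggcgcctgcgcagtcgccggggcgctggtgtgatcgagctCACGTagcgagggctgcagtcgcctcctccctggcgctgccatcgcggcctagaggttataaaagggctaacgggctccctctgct
P4HA2: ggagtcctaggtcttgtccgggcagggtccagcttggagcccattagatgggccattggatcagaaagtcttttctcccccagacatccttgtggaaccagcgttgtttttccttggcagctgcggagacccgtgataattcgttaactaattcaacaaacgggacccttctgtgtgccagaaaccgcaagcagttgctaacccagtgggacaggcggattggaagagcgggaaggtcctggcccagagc
PLOD1: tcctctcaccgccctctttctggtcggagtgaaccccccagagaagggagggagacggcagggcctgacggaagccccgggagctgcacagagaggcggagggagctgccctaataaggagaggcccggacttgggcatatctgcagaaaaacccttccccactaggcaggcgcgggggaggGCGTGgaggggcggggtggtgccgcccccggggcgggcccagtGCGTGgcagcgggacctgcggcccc
PLOD2: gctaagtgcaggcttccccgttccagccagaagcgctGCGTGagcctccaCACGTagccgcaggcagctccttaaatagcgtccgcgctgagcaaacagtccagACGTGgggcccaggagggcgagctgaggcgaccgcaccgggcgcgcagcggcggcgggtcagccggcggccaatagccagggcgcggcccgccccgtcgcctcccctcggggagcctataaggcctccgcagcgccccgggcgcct
PLOD3: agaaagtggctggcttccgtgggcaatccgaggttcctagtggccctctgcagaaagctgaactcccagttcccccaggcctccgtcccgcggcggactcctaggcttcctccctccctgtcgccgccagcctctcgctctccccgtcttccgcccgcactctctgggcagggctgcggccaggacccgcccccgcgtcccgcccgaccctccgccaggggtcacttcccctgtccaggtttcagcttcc
Counted from the start, P4HA1 has 1 match, at -86; PLOD1 has 2, at -68 and -25; PLOD2 has 3, at -213, -200 and -146. P4HA2 and PLOD3 have none in this window. The 5 genes were picked partly for their level in control 2, so motif and level cannot be compared across them. A link between the 2 was not tested. Over the 26 members with an entry (31 promoters), 19 promoters of 16 genes held 1 of the motifs, and 10 promoters of 8 genes held ACGTG. Of all 35116 promoters of this length, 43.2% held 1 of the motifs, and 18.5% held ACGTG. A match describes the letters and is not evidence of binding.

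P3H1, P3H2 and P3H3 encode prolyl 3-hydroxylases, and P3H4 and CRTAP encode related proteins without that activity that work in complexes with them. P3H3 was at 54.3 and 107 RPM in control 1 and 2 and at 32.7, 26.4 and 34.1 RPM in siLIX1L 1, 2 and 3, which is 80.5 ± 37.0 (SD, n = 2) against 31.1 ± 4.14 RPM (SD, n = 3). Both controls lay above all siLIX1L libraries, control 1 by 1.75-fold and control 2 by 3.43-fold over their mean. The limma difference was -1.06 (standard error 0.26, adjusted p 0.0746); edgeR gave an adjusted p of 0.0688 and DESeq2 0.0023. The gene lies at chr12:6828410-6839851 on the plus strand (GENCODE 29, GRCh38) and shares exon sequence with GPR162 on the same strand, so reads of the 2 genes may be mixed.

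P3H2 was at 15.2 and 20.4 RPM in the controls and at 4.64, 6.09 and 13.5 RPM with siLIX1L. The groups did not overlap, although siLIX1L 3 lay near control 1, and edgeR gave a log2 difference of -1.15 with an adjusted p of 0.180. P3H4 was at 53.4 and 83.9 RPM and at 40.1, 37.0 and 53.3 RPM, so that control 1 and siLIX1L 3 were almost level (limma -0.54, adjusted p 0.182). P3H1 was at 82.8 and 144 RPM and at 99.5, 95.1 and 83.4 RPM, with control 1 the lowest and control 2 the highest library (limma -0.21, adjusted p 0.576). CRTAP was close in all 5 libraries, at 262 and 255 RPM in the controls and 278, 265 and 238 RPM with siLIX1L (limma 0.01, adjusted p 0.982).

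COLGALT1 and COLGALT2 encode the galactosyltransferases that add the first sugar to hydroxylysine. COLGALT1 was at 252 and 291 RPM in the controls and at 233, 226 and 278 RPM with siLIX1L (limma -0.13, adjusted p 0.635). COLGALT2 was at 7.60 and 2.95 RPM and at 3.43, 6.03 and 5.11 RPM. Among the 32 members with a mean of at least 1 RPM, COLGALT2 was the 1 in which control 1 was at least 1.5 times control 2. Its difference was -0.63 against control 1 and 0.60 against control 2.

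**Figure D2:**
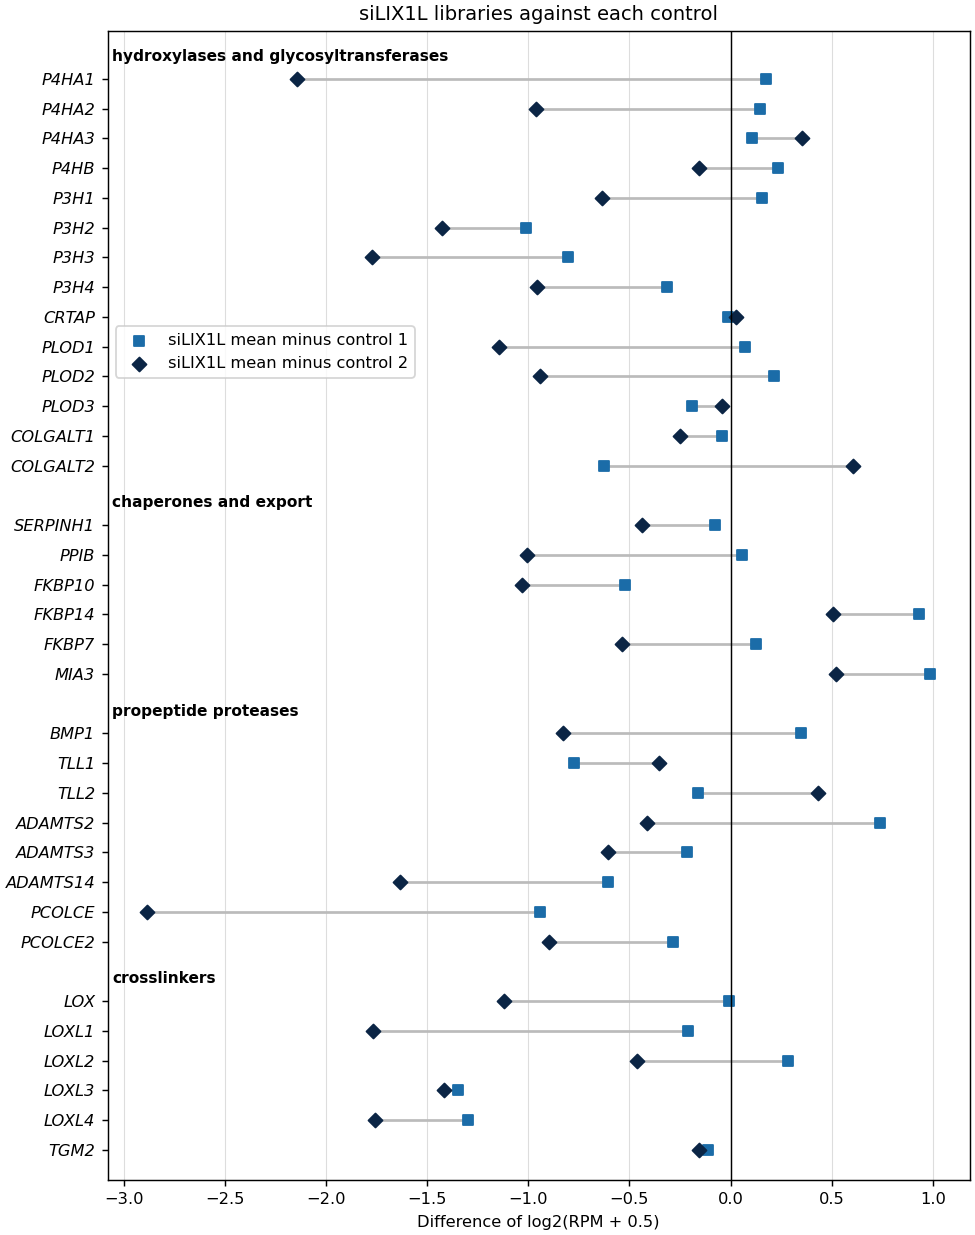
Mean of log2(RPM + 0.5) over the 3 siLIX1L libraries minus control 1 (squares) or minus control 2 (diamonds), for each of the 34 genes by step; a grey line joins the 2 values, and 0 is no difference. For P4HA1 the values are 0.18 and -2.14, on either side of 0, while those of LOXL3, -1.35 and -1.42, lie close together.

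The sign of the median difference of the chaperones depended on the control. It was -0.23 with both controls, 0.09 against control 1, -0.49 against control 2, and 0.11 without siLIX1L 3. Control 2 was above control 1 in all 6 genes, but by 1.5 times in only 2, PPIB and FKBP7. The summed level was 602 and 857 RPM in the controls and 689, 677 and 435 RPM in siLIX1L 1, 2 and 3. By limma 0 of 5 tested passed (2 with an unadjusted p under 0.05), and by edgeR 0 of 6 (2). DESeq2 called 1 of 6 lower, FKBP10, against 6.22% of all genes.

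FKBP10 encodes FKBP65, a prolyl isomerase of the ER needed for collagen crosslinking and mutated in a form of brittle bone disease. It was at 203 and 289 RPM in control 1 and 2 and at 148, 145 and 130 RPM in siLIX1L 1, 2 and 3, or 246 ± 60.8 (SD, n = 2) against 141 ± 9.72 RPM (SD, n = 3). Both controls were above all siLIX1L libraries, control 1 by 1.43-fold over their mean. The limma difference was -0.74 (standard error 0.20, adjusted p 0.0836), and DESeq2 gave an adjusted p of 0.0226. FKBP10 (chr17:41812680-41823217, plus strand) and P3H4 (chr17:41801947-41812604, minus strand) lie head to head with 75 bases between them. Both had the 2 controls above the siLIX1L libraries, an order that 21.7% of all genes had. In P3H4 control 1 and siLIX1L 3 were almost level, at 53.4 and 53.3 RPM. A link between position and level was not tested.

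SERPINH1 encodes HSP47, the collagen-specific chaperone that binds the folded triple helix. It was at 276 and 353 RPM in the controls and at 324, 310 and 177 RPM with siLIX1L. SiLIX1L 3 was the lowest and control 2 the highest (limma -0.25, adjusted p 0.619); the difference was 0.02 without siLIX1L 3, -0.07 without control 2 and -0.42 without control 1. PPIB, cyclophilin B, a prolyl isomerase in the P3H1 complex, was at 60.02 and 126 RPM and at 87.1, 75.4 and 36.9 RPM, again lowest in siLIX1L 3 (limma -0.43, adjusted p 0.531; 0.06 without control 2). FKBP7, another prolyl isomerase of the ER, was at 7.66 and 12.4 RPM and at 10.8, 11.7 and 4.66 RPM, with siLIX1L 3 lowest as well.

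FKBP14 and MIA3 were higher on average with siLIX1L. FKBP14, a prolyl isomerase whose loss causes a form of Ehlers-Danlos syndrome, was at 15.7 and 21.3 RPM in control 1 and 2 and at 37.9, 36.9 and 20.1 RPM in siLIX1L 1, 2 and 3. Its groups overlapped through siLIX1L 3 (limma 0.45, adjusted p 0.213). MIA3, also called TANGO1, loads procollagen into the carriers that leave the ER; it was at 40.3 and 55.8 RPM and at 80.7, 97.5 and 65.8 RPM, a 1.69-fold higher mean with no overlap. Its limma difference was 0.42 (standard error 0.14, adjusted p 0.132), and edgeR gave 0.74 with an adjusted p of 0.138.

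Among the propeptide proteases, the enhancer PCOLCE had the largest difference of all members when both controls were used, and the proteases themselves were divided. The median over 7 genes was -0.56 with both controls, -0.29 against control 1 and -0.83 against control 2; with a pseudocount of 5 RPM it was -0.24, as several of these genes were low. Control 2 was at least 1.5 times control 1 in 5 of the 7. The summed level was 233 and 614 RPM in control 1 and 2 and 239, 234 and 255 RPM with siLIX1L. By limma 0 of 2 tested passed (1 with an unadjusted p under 0.05), and by edgeR 0 of 7 (2). DESeq2 called 2 lower, PCOLCE and ADAMTS14, and over all genes it called 6.22% lower.

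PCOLCE encodes a secreted glycoprotein that speeds removal of the C-propeptide by BMP1. It was at 72.7 and 281 RPM in control 1 and 2 and at 41.9, 35.4 and 35.9 RPM in siLIX1L 1, 2 and 3, or 177 ± 147 (SD, n = 2) against 37.8 ± 3.62 RPM (SD, n = 3). Both controls were above all siLIX1L libraries, but to unequal degree: control 1 by 1.93-fold and control 2 by 7.45-fold over their mean. The limma difference was -1.78 (standard error 0.50, adjusted p 0.0921). It was -0.85 without control 2, with an adjusted p of 0.0481, and -2.72 without control 1, with 0.0082. EdgeR gave -2.27 with an adjusted p of 0.0673, and DESeq2 an adjusted p of 1.9e-04. The gene lies at chr7:100602177-100608175 on the plus strand, and the annotated antisense gene PCOLCE-AS1 overlaps its exons, so without strand information reads of the 2 cannot be told apart. PCOLCE2, its paralogue, was at 1.01 and 1.80 RPM and at 0.88, 0.79 and 0.56 RPM, with both controls above (edgeR adjusted p 0.243). For control 1 that order rests on 15 reads against 13 in siLIX1L 1.

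BMP1, TLL1 and TLL2 encode the tolloid proteases that remove the C-propeptide. BMP1 was at 101 and 228 RPM in the controls and at 118, 115 and 156 RPM with siLIX1L, so control 1 was the lowest and control 2 the highest (limma -0.20, adjusted p 0.670; 0.25 without control 2). TLL1 was at 17.7 and 13.1 RPM and at 9.56, 7.88 and 13.9 RPM, with siLIX1L 3 between the controls (edgeR adjusted p 0.293). TLL2 had 5 and 1 reads in the controls and 4, 3 and 5 with siLIX1L, near the limit that a count of 0 allows.

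ADAMTS2, ADAMTS3 and ADAMTS14 encode the proteases that remove the N-propeptide. ADAMTS2 was at 35.6 and 79.5 RPM in control 1 and 2 and at 65.4, 72.2 and 44.7 RPM with siLIX1L, with all 3 between the controls (edgeR adjusted p 0.950). ADAMTS14 was at 3.76 and 8.20 RPM and at 2.22, 2.12 and 2.58 RPM. Both controls were above, control 1 by 1.63-fold over the siLIX1L mean (edgeR -1.40, adjusted p 0.102; DESeq2 adjusted p 0.0359). ADAMTS3 was at 1.34 and 1.91 RPM and at 1.01, 1.32 and 0.95 RPM, where control 1 and siLIX1L 2 were nearly level (edgeR adjusted p 0.387).

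Among the crosslinkers, LOX, LOXL1 and LOXL2 were those in which only control 2 was above every siLIX1L library. The median of the 6 was -0.78 with both controls, -0.16 against control 1 and -1.27 against control 2. With a minimum mean of 5 RPM in place of 1 it was -0.35, because LOXL3 and LOXL4 then drop out. The summed level was 1474 and 2635 RPM in the controls and 1763, 1810 and 1512 RPM with siLIX1L. By limma 0 of 4 tested passed (0 with an unadjusted p under 0.05), and by edgeR 0 of 6 (3). DESeq2 called 2 of 6 lower, LOXL3 and LOXL4, against 6.22% of all genes.

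LOX, the founding lysyl oxidase, was at 341 and 735 RPM in control 1 and 2 and at 344, 388 and 291 RPM in siLIX1L 1, 2 and 3. LOXL1, best known for its role with elastic fibres, was at 24.7 and 73.6 RPM and at 18.6, 17.5 and 29.5 RPM. In both, control 1 lay within the siLIX1L range and control 2 above it, at 2.16 and 2.97 times control 1. The limma differences were -0.55 for LOX (adjusted p 0.322) and -0.58 for LOXL1 (adjusted p 0.237), and those by edgeR were -0.69 and -1.20. LOXL1 was at 0.67 to 2.81 FPKM, where the added 1 shrinks the limma difference. Without control 1 the limma differences of LOX and LOXL1 were -1.08 and -1.06. LOXL2, an enzyme of the same family linked to liver fibrosis, overlaps exons of ENTPD4 on the same strand, so reads of the 2 genes may be mixed; it was at 1048 and 1761 RPM and at 1355, 1358 and 1133 RPM. All siLIX1L libraries lay between the 2 controls (limma -0.08, adjusted p 0.840), and the difference was 0.26 without control 2.

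LOXL3 and LOXL4 were low but had steadier controls. LOXL3 was at 6.12 and 6.45 RPM in the controls and at 2.69, 1.06 and 3.03 RPM with siLIX1L. Its controls differed by 1.05-fold, and the siLIX1L mean was 2.78-fold lower (edgeR -1.48, adjusted p 0.109; DESeq2 adjusted p 0.0316). LOXL4 was at 4.71 and 6.67 RPM and at 1.82, 1.06 and 2.13 RPM, a 3.41-fold lower mean (edgeR -1.78, adjusted p 0.0689; DESeq2 adjusted p 0.0048). LOXL3 shares exon sequence with HTRA2 and DOK1 on the opposite strand. TGM2, transglutaminase 2, which forms a different kind of crosslink, was at 50.1 and 51.8 RPM and at 40.9, 45.4 and 53.6 RPM, with siLIX1L 3 above both controls (limma -0.07, adjusted p 0.707).

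The make-up of each enzyme family was compared per kilobase of the longest coding transcript, which assumes that the reads come from that transcript. Reads from introns, if counted, and reads of genes that share exons with a member, as for LOXL2 and P3H3, were not separated. On this scale LOXL2 had the highest mean level of the 34 over all 5 libraries (375 RPM per kb), followed by P4HB (265) and PLOD2 (132), and TLL2 the lowest (0.0337). P4HA2 held 81.2 and 65.3% of the prolyl 4-hydroxylase alpha subunits in the controls and 78.9, 78.1 and 84.6% with siLIX1L. Control 2 stood apart, with P4HA1 at 34.5% against 14.5 to 21.6% in the other libraries. PLOD3 likewise held 16.2% of the lysyl hydroxylases in control 2 against 25.96 to 32.8% elsewhere. P3H1 held 38.5 and 38.6% of its family in the controls and 54.2, 56.0 and 43.7% with siLIX1L. P3H3 held 28.7 and 32.6% against 20.3, 17.6 and 20.3%. For both, the 2 controls were close and the groups did not overlap, which was also seen in other families. ADAMTS2 held 85.1 and 86.4% of the N-propeptide proteases in the controls and 91.2 to 94.6% with siLIX1L. FKBP10 held 92.8 and 92.6% of the FKBP genes against 82.6 to 89.6%. A share shows only that the members changed unequally, and it was not tested. In the lysyl oxidase family LOXL2 held 78.6 and 73.5% in the controls and 83.3, 82.0 and 81.8% with siLIX1L.

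**Figure D3:**
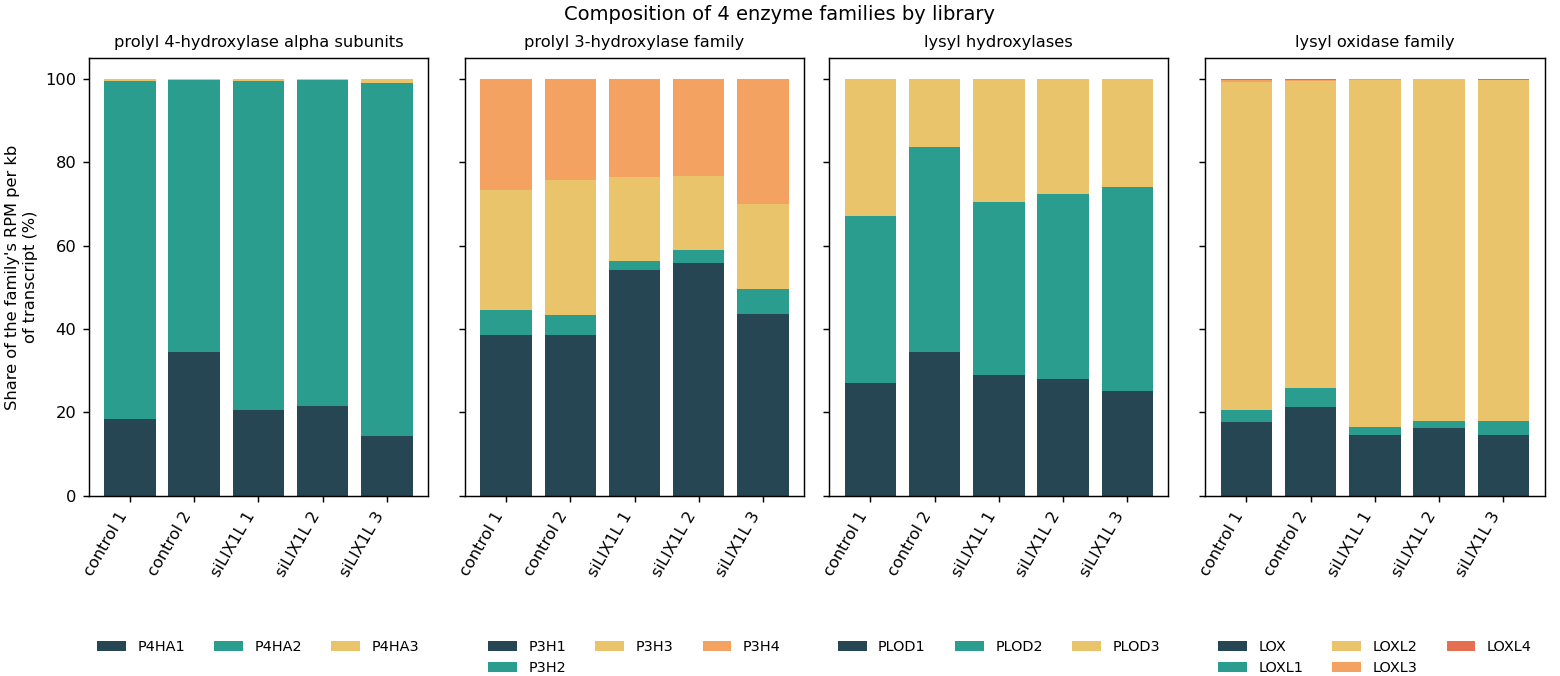
Share of each gene in its family's summed level, in RPM per kb of the longest coding transcript, for the prolyl 4-hydroxylase alpha subunits, the prolyl 3-hydroxylase family, the lysyl hydroxylases and the lysyl oxidase family; each stacked bar is 1 library. Control 2 differs from the other bars for P4HA1 (34.5%) and PLOD3 (16.2%), while P3H1 holds 38.5 and 38.6% in the controls and 43.7 to 56.0% with siLIX1L.

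Of 5 lists around the pathway, 4 were higher in control 2 than in control 1 in the median, by unequal amounts that were not compared by a test. Fibrillar collagens, the substrates of these enzymes, had a median of control 2 minus control 1 of 1.31 on the log2 scale over 8 genes. By limma 0 of 5 tested passed (1 with an unadjusted p under 0.05), and by edgeR 0 of 8 (3). DESeq2 called 2 of 9 lower, COL1A2 and COL11A1, against 6.22% of all genes. COL1A1 was at 1813 and 4815 RPM in control 1 and 2 and at 2757, 2901 and 4535 RPM in siLIX1L 1, 2 and 3, with all 3 between the controls. COL1A2 was at 101 and 134 RPM and at 61.5, 61.2 and 37.1 RPM, with both controls above (limma -0.78, adjusted p 0.0683). COL11A1, with the smallest edgeR p of this list, was at 8.60 and 23.0 RPM and at 2.36, 3.05 and 4.77 RPM (edgeR -2.24, adjusted p 0.0677). COL1A1 and COL1A2, the chains of type I collagen, thus had different orders of the libraries.

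Of 14 genes of procollagen export tested by limma, 1 rose and 0 fell (3 with an unadjusted p under 0.05). SEC24C, a cargo adaptor of the COPII coat, was at 30.7 and 25.1 RPM in the controls and at 82.7, 93.7 and 81.4 RPM with siLIX1L, a 3.08-fold higher mean (limma 1.03, adjusted p 0.0384; edgeR 1.61, adjusted p 0.0373). Both controls of SEC24C lay below the siLIX1L libraries, as they did for MIA3. Of the 18 genes of the list 5 had this order, against 22.7% of all genes. In 2 of the 18 both controls lay above, against 21.7% of all genes. DESeq2 called SEC24C and 1 other gene, SEC24A, higher, and over all genes it called 843 of 13334 higher. This list's median of control 2 minus control 1 was -0.07. No gene passed limma in the fits without 1 siLIX1L library, SEC24C included.

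Of 19 general folding genes of the ER tested, 0 passed limma (5 with an unadjusted p under 0.05; edgeR 0 of 20, 4). DESeq2 called 1 higher, HYOU1, and 2 lower, FKBP2 and KDELR1. Over all 13334 genes it called 843 higher and 830 lower. The median of control 2 minus control 1 was 0.44, and 9 of 20 genes were at 1.5 times or more. HYOU1, an ER chaperone of the HSP70 family, was at 144 and 142 RPM in the controls and 221, 243 and 250 RPM with siLIX1L (limma 0.69, adjusted p 0.0621). FKBP2, a prolyl isomerase, was at 53.2 and 71.9 RPM and at 38.3, 30.5 and 34.4 RPM (limma -0.80, adjusted p 0.0727). The 2, named for their small p, pointed in opposite directions, each with groups that did not overlap. Of the 20 genes of the list, 4 had both controls above the siLIX1L libraries, against 21.7% of all genes. In 2 of the 20 both controls lay below, against 22.7% of all genes. Of 6 genes of fibril assembly and uptake tested, 0 passed limma (3 with an unadjusted p under 0.05; edgeR 0 of 12, 8). DESeq2 called 6 of 12 lower, against 6.22% of all genes: EFEMP2, BGN, MRC2, DCN, LUM and FBLN1. The median of control 2 minus control 1 was 1.05. EFEMP2, fibulin-4, which brings lysyl oxidase to elastic fibres, was at 117 and 218 RPM in the controls and 64.6, 58.0 and 62.3 RPM with siLIX1L (limma -1.28, adjusted p 0.0556). BGN, the small proteoglycan biglycan, was at 3.56 and 2.84 RPM and at 0.61, 0.86 and 0.51 RPM (edgeR -2.29, adjusted p 0.0506).

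The list of hypoxia response genes was high in control 2. Of 17 genes with a mean of at least 1 RPM, 13 were at 1.5 times control 1 or more. Among the members it was 17 of 32, and over all genes 16.5%. The median of control 2 minus control 1 was 1.14, between those of fibrillar collagens (1.31) and of fibril assembly and uptake (1.05). Against control 1 alone the siLIX1L libraries had a median of 0.12, and against control 2 alone -1.17. By limma 1 of 12 tested fell and 0 rose: ADM, adrenomedullin, was at 152 and 336 RPM in the controls and at 55.4, 51.2 and 53.7 RPM with siLIX1L (limma -2.03, adjusted p 0.0449; edgeR adjusted p 0.0465). DESeq2 called ADM and VEGFA lower and EGLN2 higher. Over all 13334 genes it called 830 lower and 843 higher. With median-ratio scaling 0 of the 12 passed, at a smallest adjusted p of 0.05003. No gene passed without 1 siLIX1L library, ADM included. VEGFA, an angiogenic factor, went against the list between the controls, at 269 and 141 RPM, and was at 81.6, 91.7 and 71.7 RPM with siLIX1L (edgeR -1.33, adjusted p 0.0596). The part of oxygen supply or cell density in these differences was not tested, and the labels give neither.

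**Figure D4:**
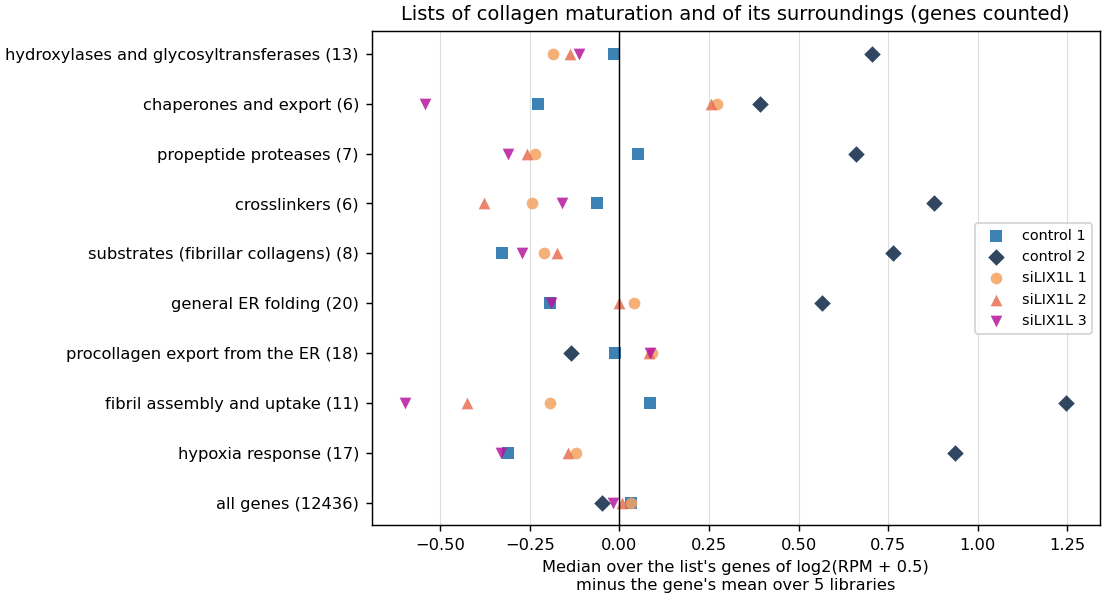
Median over the genes of each list of log2(RPM + 0.5) minus the gene's mean over the 5 libraries, for the 4 steps, 5 lists around the pathway and all genes; each symbol is 1 library, and the number of genes is in parentheses. Control 2 lies at 0.39 to 0.88 in the 4 steps, at -0.13 for export and at -0.05 for all genes. In the remaining lists it lies at 0.57 to 1.25, with hypoxia response at 0.94.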

How the data were processed

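The authors deposited 1 table per library with FPKM for 19936 genes, and for siLIX1L 3 also a gene length and a raw read count, per the file headers. Bowtie 0.12.2 and mm8 appear in the submitters' processing notes, but mm8 is a mouse build and the identifiers are human; build and counting tool are thus uncertain, and strandedness is not given. Deposited lengths equal GENCODE 29 gene spans on GRCh38 for 98.2% of genes, and coordinates are given there. FPKM times length gave whole reads (tolerance 0.01) for 100% of values, equal to the deposited counts of siLIX1L 3; RPM is reads per 1000000 of these totals.

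Differences were tested with limma 3.58.1 in R 4.3.3 on log2(FPKM + 1) (two-sided, eBayes with trend and robust; adjusted by Benjamini-Hochberg to a threshold of 0.05) over genes with at least 1 FPKM in 2 libraries, with control and siLIX1L as groups. EdgeR 4.0.16 (TMM) and DESeq2 1.42.0 on the recovered reads, other minimum levels, pseudocounts and scalings, a replicate block, siLIX1L 1 and 2 averaged, and each library left out were the alternatives. Tests were also run on simulated independent counts with planted changes. Those held no shifted control and no closely alike pair of libraries, so they do not show how reliable the tests are here. Medians use log2(RPM + 0.5) for genes with a mean of at least 1 RPM. Members and lists were chosen with earlier results of these data known. Named are all members, LIX1L, COL1A1 and COL1A2. In each pathway list the genes past the threshold in limma or edgeR are named or, with none, up to 2 with the smallest p. Genes that only DESeq2 called, ACTA2, NGFR, RELN and VEGFA were named after their values were seen. Promoters are from RefSeq (GRCh38.p14), scanned in Python 3.11.15.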

Additional observations from a re-analysis of the deposited data

How the results depend on the processing

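The count of members past the threshold was 0 in the main limma fit and under every setting of level, pseudocount and scaling, 6 with DESeq2, and 0 to 10 over the fits that left out 1 library. For all genes it was 121, and it was 0 with no minimum level (3407 with an unadjusted p under 0.05), 233 with quantile normalization, 0 with siLIX1L 1 and 2 averaged (976 with an unadjusted p under 0.05), 1673 with DESeq2, and 0 to 1650 with 1 library left out. The difference of LIX1L kept its sign and missed the threshold with no minimum level (-0.87, adjusted p 0.103), with siLIX1L 1 and 2 averaged (-0.89, adjusted p 0.168) and without any 1 siLIX1L library; with 1 library left out it ran from -0.99 to -0.75. Step medians with 1 library left out ran from -0.86 to -0.062 for all members, from -0.94 to -0.012 for hydroxylases, from -0.49 to 0.11 for chaperones, from -0.83 to -0.29 for proteases and from -1.27 to -0.16 for crosslinkers. A pseudocount of 5 RPM moved the proteases to -0.24, and a minimum mean of 5 RPM the crosslinkers to -0.35. Of the 21 members tested, 10 kept their sign everywhere. The sign turned without control 2 for 7 members, whose differences with 1 library left out ran from a lowest value without control 1 to a highest without control 2: P4HA2 (-0.72 to 0.10), P3H1 (-0.54 to 0.13), PLOD1 (-1.01 to 0.058), PLOD2 (-0.81 to 0.18), PPIB (-0.92 to 0.060), BMP1 (-0.65 to 0.25) and LOXL2 (-0.43 to 0.26). It turned without control 1 and without siLIX1L 1 for P4HB (-0.15 to 0.23), without siLIX1L 3 for SERPINH1 (-0.42 to 0.020), and with quantile normalization for PLOD3 (0.0098) and LOXL2 (0.040). CRTAP, at 0.01, turned with median-ratio scaling (-0.00032), edgeR (-0.0038), siLIX1L 1 and 2 averaged (-0.021) and 3 of the fits with 1 library left out (-0.035 to 0.062). The cause of these turns was not tested.

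The labels number the libraries within each group, and numbers 1 and 2 are shared. Samples of the same number did not deviate together (r = -0.19 over 12436 genes, across genes, which are not independent), so the numbers are not taken as pairs. With the replicate number as a block, which drops siLIX1L 3 from the contrast, limma called 94 genes and 0 members (7 with an unadjusted p under 0.05); LIX1L had an adjusted p of 0.0284, and SERPINH1 turned to 0.020. Depth limits P4HA3 and TLL2, with 28 reads or fewer in each library, and also PCOLCE2 and ADAMTS3, with 10 to 35 reads. Arms of 2 and 3 libraries limit all tests.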
